A study of Homo sapiens with 16 samples.

Results

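The FGF receptor genes FGFR1, FGFR2, FGFR3, FGFR4 and FGFRL1 were taken by name, which gave 5 genes among the 20037 annotated protein-coding genes of chromosomes 1 to 22, X and Y. Each was read over its annotated span and the 10 kb on either side. The cells were LNCaP, an androgen-sensitive human prostate carcinoma line that grew from a metastasis. They carried a guide RNA against PRKCI (sgPRKCI) or a control guide (sgC), and each was given 10 µM enzalutamide or DMSO alone for 72 h. The 4 conditions were therefore sgPRKCI with enzalutamide, sgPRKCI with DMSO, sgC with enzalutamide and sgC with DMSO. PRKCI encodes an atypical protein kinase C that acts in cell polarity, and enzalutamide is an antiandrogen drug used in prostate cancer. The labels do not say whether the guided cells were a pool or a clone, and they name no Cas9 enzyme.

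The assay was CUT&RUN, in which an antibody tethers a nuclease to chromatin and the released fragments are sequenced. Peak lists for 3 antibodies were used: EZH2, the catalytic subunit of the Polycomb repressive complex PRC2; H3K27me3, the mark that PRC2 lays down; and H3K4me3, a mark of active or poised promoters. There was 1 library per antibody and condition, 12 in all, so no difference below has a replicate check and no test was made. Intervals are exact Poisson 95% intervals and cover counting error only. In a pool of cells, a lower peak in every cell and a peak in fewer cells cannot be told apart.

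Fibroblast growth factors (FGFs) are secreted ligands that bind receptor tyrosine kinases together with heparan sulphate or a klotho co-receptor. The bound receptors pass the signal through the adaptor FRS2 and GRB2 to the RAS and MAP kinase cascade, and through phospholipase C gamma and PI3-kinase. FGFR1 to FGFR4 carry the intracellular kinase, whereas FGFRL1 has the extracellular part without a kinase domain. In the prostate, stromal FGFs act on FGFR2 of the epithelium, and raised FGFR1 signalling has been linked to prostate cancer growth that does not rely on androgens.

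Promoter windows of 300 bases, 250 before and 50 after a listed start, were held in a RefSeq table of assembly GRCh38.p14 for 4 of the 5 genes (9 windows). The windows below are shown because the called peaks of EZH2 and H3K4me3 lay on or beside them, and the last because it is a listed start with neither. CpG dinucleotides, the sequence feature that marks most broadly active promoters and the usual PRC2 targets, are in capitals. FGFR1 is named only.

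FGFR2, first start, chr10:121598395-121598694, minus strand: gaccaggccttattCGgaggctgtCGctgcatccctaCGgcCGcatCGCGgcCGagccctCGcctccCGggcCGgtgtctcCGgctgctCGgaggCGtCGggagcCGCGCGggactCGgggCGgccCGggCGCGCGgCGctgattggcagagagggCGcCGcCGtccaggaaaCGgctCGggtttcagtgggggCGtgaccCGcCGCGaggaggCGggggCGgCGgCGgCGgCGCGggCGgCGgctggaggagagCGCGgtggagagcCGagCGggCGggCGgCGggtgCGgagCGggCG
FGFR3, chr4:1793043-1793342, plus strand: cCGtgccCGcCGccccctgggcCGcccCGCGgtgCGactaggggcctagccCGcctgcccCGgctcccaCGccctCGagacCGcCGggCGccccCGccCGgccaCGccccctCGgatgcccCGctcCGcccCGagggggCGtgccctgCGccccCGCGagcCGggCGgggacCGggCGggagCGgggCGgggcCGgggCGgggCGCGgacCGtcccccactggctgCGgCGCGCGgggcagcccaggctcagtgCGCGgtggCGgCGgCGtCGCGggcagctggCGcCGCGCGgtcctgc
FGFR4, first start, chr5:177086665-177086964, plus strand: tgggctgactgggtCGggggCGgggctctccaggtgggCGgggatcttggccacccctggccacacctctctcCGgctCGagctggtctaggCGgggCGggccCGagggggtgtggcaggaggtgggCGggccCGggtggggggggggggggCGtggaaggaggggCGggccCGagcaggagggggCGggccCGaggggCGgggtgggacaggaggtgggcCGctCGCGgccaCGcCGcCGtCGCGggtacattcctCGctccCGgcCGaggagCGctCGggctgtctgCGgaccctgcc
FGFRL1, chr4:1012214-1012513, plus strand: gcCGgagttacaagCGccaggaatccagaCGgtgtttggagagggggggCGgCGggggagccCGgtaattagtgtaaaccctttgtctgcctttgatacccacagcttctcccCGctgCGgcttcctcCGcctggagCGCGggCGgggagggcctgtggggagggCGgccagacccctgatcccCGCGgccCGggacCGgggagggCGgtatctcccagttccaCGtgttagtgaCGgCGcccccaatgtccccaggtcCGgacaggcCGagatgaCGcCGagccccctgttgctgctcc
FGFR4, second start, chr5:177089300-177089599, plus strand: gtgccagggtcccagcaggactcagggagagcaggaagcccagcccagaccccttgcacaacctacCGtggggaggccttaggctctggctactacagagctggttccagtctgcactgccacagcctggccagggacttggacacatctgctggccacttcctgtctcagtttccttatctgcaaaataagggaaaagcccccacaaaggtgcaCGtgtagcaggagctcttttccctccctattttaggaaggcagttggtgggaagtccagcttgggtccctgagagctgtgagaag

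The FGFR2 and FGFR3 windows were among the most CpG-rich in the table. The first FGFR2 window held 52 CpGs and the FGFR3 window 51, and 0.969% and 1.26% of the 22199 windows of 15843 protein-coding genes held at least as many. The first FGFR4 window held 30 CpGs and the FGFRL1 window 25, nearer to the median of all windows, which was 21. The second FGFR4 window held 2, and 94.0% of windows held at least as many. The other 4 FGFR2 windows, at starts further inside the gene, held 5 to 8. A peak of H3K4me3 in at least 1 library overlapped the 4 CpG-rich windows and none of the 5 CpG-poor ones. The same split held across the table: the median window with H3K4me3 in all 4 conditions (12296 windows) held 28 CpGs, and the median window with none (8899 windows) held 6. Windows with EZH2 in sgC cells on DMSO (2856 windows) held a median of 30.

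**Figure D1:**
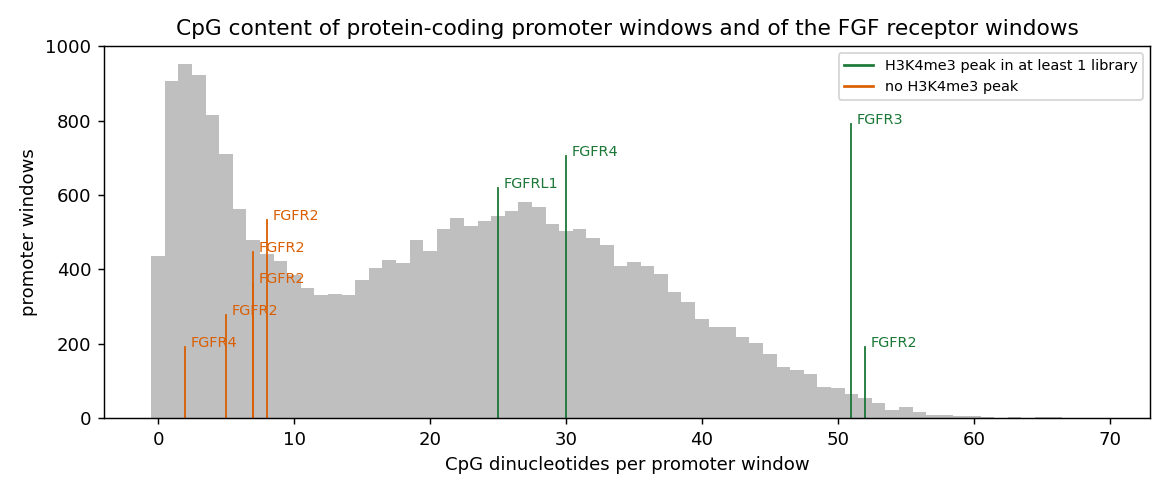
CpG dinucleotides per 300-base promoter window (horizontal axis) for 22199 windows of protein-coding genes (grey, number of windows on the vertical axis) and for the 9 FGF receptor windows (lines, whose heights are set only to separate the names). Green lines are windows under an H3K4me3 peak in at least 1 library, at 25 to 52 CpGs, and orange lines are windows under none, at 2 to 8 CpGs.

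The motif GGGCGG, the core of the GC box read by SP1 and related factors, was searched on both strands without regard to overlap with other motifs. It was found 5 times in the first FGFR2 window, 8 times in the FGFR3 window, 7 times in the first FGFR4 window and 4 times in the FGFRL1 window, and 56.3% of all windows held it.

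One EZH2 library, that of sgPRKCI cells on enzalutamide, was unlike the rest. It is called by its EZH2 label here, which the lists do not check. Its list was the longest, with 24551 peaks against 6182 in sgPRKCI cells on DMSO, 15373 in sgC cells on enzalutamide and 11452 in sgC cells on DMSO. It held an EZH2 peak at 96.2% of the genes with H3K4me3 in the same condition, against 10.9% to 28.0% in the other 3. Across the 13802 genes with both peaks, which share the position of the promoter and its base composition, log2 summit heights of EZH2 and H3K4me3 had a Pearson correlation of 0.94, and the median distance between the 2 summits was 74 bp. In the other conditions the correlation was -0.14 to -0.06 over 1561 to 3879 genes. The comparison of guides in DMSO and that of enzalutamide in sgC cells do not use that library. The H3K4me3 lists held 17424 to 19294 peaks and the H3K27me3 lists 78855 to 100414. H3K4me3 was called in all conditions at the prostate luminal marker genes KLK2, KLK3, TMPRSS2, HOXB13 and FOXA1. It was also called at VWF and GFAP, markers of endothelium and astrocytes, and in no condition at the leukocyte gene PTPRC, the endothelial gene PECAM1, the fibroblast gene COL1A2 or the hepatocyte gene ALB. PRKCI itself had H3K4me3 in all 4 conditions, which does not check the guide.

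H3K4me3 was called at all 5 FGF receptor genes in all 4 conditions. Of all protein-coding genes, 71.6% had such a peak in sgPRKCI cells on enzalutamide, 71.3% in sgPRKCI cells on DMSO, 71.1% in sgC cells on enzalutamide and 69.2% in sgC cells on DMSO, so the call by itself sets the receptors apart from few genes. At FGFR2, FGFR3 and FGFR4 the peaks lay on or beside 1 listed start. FGFR1 had no listed start. Its start was taken as the annotated end nearer to the H3K4me3 peak of sgC cells on DMSO, so their match was set in advance. At FGFR1 (gene at chr8:38411143-38468635) the peaks lay over the annotated end with the higher coordinate, and were 1.57 to 1.70 kb wide. At FGFR2 (chr10:121478330-121598458, minus strand) they covered the first of the 5 listed starts and were 1.09 to 1.16 kb wide. At FGFR4 (chr5:177086915-177098144, plus strand) they covered the first of both listed starts and were 0.694 to 1.07 kb wide. At FGFRL1 (chr4:1010212-1026898, plus strand) they reached from -3.38 to 0.644 kb relative to the listed start, where negative distances are upstream. They formed 1 peak of 3.90 to 3.98 kb in 3 conditions and 2 peaks of 0.470 and 3.19 kb in sgC cells on enzalutamide. The listed FGFRL1 start, at 1012464, lies inside the annotated gene. In every condition the peaks covered both that start and the annotated upstream end. FGFR3 (chr4:1793293-1808867, plus strand) had its peak from the start into the gene, 2.56 kb wide in sgPRKCI cells on enzalutamide and 2.47 kb in sgPRKCI cells on DMSO, against 1.06 kb in sgC cells on enzalutamide and 1.11 kb, with a separate 0.241 kb peak further in, in sgC cells on DMSO.

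Peak height is given here as the number of fragments stacked at the summit divided by the coverage of the whole genome in that library, both recovered from the authors' fold enrichment and p-value. What is counted as a fragment may be a read pair or an extended read, which the lists do not tell apart. For the EZH2 list of sgPRKCI cells on enzalutamide the recovery also rests on a fitted scale of 0.890. FGFR1 had an H3K4me3 summit of 141 times the genome-wide coverage in sgPRKCI cells on enzalutamide, 104 in sgPRKCI cells on DMSO, 119 in sgC cells on enzalutamide and 102 in sgC cells on DMSO. FGFRL1 stood at 114, 106, 112 and 92.7 in the same order of conditions. These 2 genes had the highest H3K4me3 of the family in every condition, and their intervals overlapped each other in each condition. Both lay above the median called summit of each library, which was 64.9 to 76.9.

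The other 3 receptors had lower summits. FGFR2 stood at 58.2 in sgPRKCI cells on enzalutamide, 46.8 in sgPRKCI cells on DMSO, 30.1 in sgC cells on enzalutamide and 46.3 in sgC cells on DMSO. FGFR4 stood at 38.8, 57.5, 33.3 and 44.0 in the same order. FGFR3 had 31.6 (interval 23.0 to 42.5, 44 fragments) in sgPRKCI cells on enzalutamide, 60.8 (47.7 to 76.3, 74 fragments) in sgPRKCI cells on DMSO, 21.2 (14.6 to 29.7, 33 fragments) in sgC cells on enzalutamide and 27.3 (17.3 to 41.0, 23 fragments) in sgC cells on DMSO. FGFR3 was the lowest of the 5 in 3 conditions, while in sgPRKCI cells on DMSO FGFR2 was the lowest and the intervals of FGFR2, FGFR3 and FGFR4 overlapped.

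**Figure D2:**
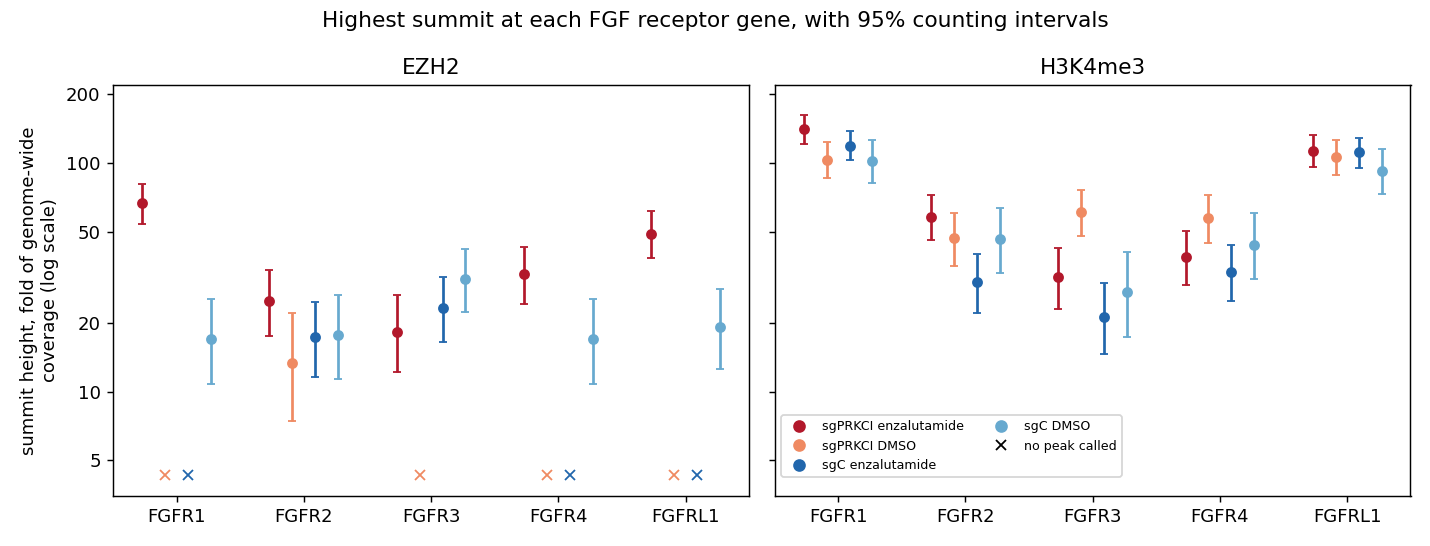
Highest summit of EZH2 (left) and H3K4me3 (right) at each FGF receptor gene, as a multiple of genome-wide coverage on a log axis, in the 4 conditions (1 library each). Bars are exact Poisson 95% counting intervals and crosses mark conditions with no called peak: EZH2 is missing at 4 genes in sgPRKCI cells on DMSO, and H3K4me3 at FGFR3 stands highest in that condition.

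The comparison of guides in DMSO sets sgPRKCI beside sgC cells without the drug, with 1 library each. Here and below, a call lost or gained with a guide or drug names a difference between 2 libraries, not a tested effect. FGFR3 was the one receptor gene whose H3K4me3 summit differed by 2-fold or more: 60.8 in sgPRKCI cells against 27.3 in sgC cells, a ratio of 2.23 (log2 1.15). Among the 13763 genes with a peak in both libraries, 0.233% were at least 2-fold higher and 0.167% at least 2-fold lower, the median log2 ratio was 0.06, and 99.9% of genes had a lower ratio than FGFR3. The counting intervals of the 2 summits did not overlap. FGFR4 had a log2 ratio of 0.39 and FGFRL1 of 0.19, while FGFR1 and FGFR2 stood at 0.02 each. No H3K4me3 call was gained or lost at a receptor gene, against 2.66% of genes gained and 0.494% lost.

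Enzalutamide over DMSO sets the libraries with and without the drug side by side within each guide. In sgPRKCI cells the median log2 ratio of H3K4me3 over all 14088 genes with both peaks was 0.31, so the ratios are read against it. FGFR3 stood at -0.94 (31.6 on enzalutamide against 60.8 on DMSO), which is -1.25 relative to the median, and 0.142% of genes had a lower ratio. The counting intervals of these FGFR3 summits did not overlap. FGFR4 stood at -0.57 (counting interval of the log2 ratio -1.11 to -0.03), with 0.710% of genes lower. FGFR1 at 0.44, FGFR2 at 0.31 and FGFRL1 at 0.10 were closer to the median. None of the 5 reached 2-fold without the centring, as 0.298% of genes did upward and 0.121% downward. No call was gained or lost, against 1.32% and 1.04% of genes.

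In sgC cells the median log2 ratio of H3K4me3 for enzalutamide over DMSO was 0.28 over 13755 genes. FGFR2 (-0.62), FGFR4 (-0.40) and FGFR3 (-0.37) were all lower on enzalutamide, with 0.872%, 2.25% and 2.53% of genes below them. FGFR1 (0.22) and FGFRL1 (0.27) stood near the median. The intervals of the enzalutamide and DMSO summits overlapped at FGFR2, FGFR3 and FGFR4. Counting intervals of their log2 ratios spanned both signs: -1.26 to 0.03 at FGFR2, -1.18 to 0.47 at FGFR3 and -1.03 to 0.25 at FGFR4. The shares of genes below them are of all genes and were not matched for summit height. At least 2-fold higher summits were seen at 0.204% of genes and at least 2-fold lower ones at 0.189%, none at a receptor gene, and no receptor call changed against 2.42% of genes gained and 0.534% lost. On enzalutamide, sgPRKCI over sgC gave a log2 ratio of 0.95 at FGFR2 (58.2 against 30.1, intervals of 46.2 to 72.4 and 22.1 to 40.1, which do not overlap), with 99.3% of genes lower and a median of 0.09. FGFR3 stood at 0.58 there and the other 3 receptor genes at 0.03 to 0.24. In that comparison 0.556% of genes were at least 2-fold higher and 0.0927% lower, none of them a receptor gene, and 1.61% of genes gained and 1.05% lost a call. The 4 comparisons share libraries in pairs, so they are not independent of each other.

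By calls alone, EZH2 differed more between conditions at these genes than H3K4me3, which was called at all 5 throughout. Summit heights did not show this at every gene. At FGFR2 the highest EZH2 summit ranged from 13.3 to 24.8 over the conditions and that of H3K4me3 from 30.1 to 58.2. All 5 receptor genes had an EZH2 peak in sgPRKCI cells on enzalutamide, where 73.5% of protein-coding genes had one. In sgPRKCI cells on DMSO 1 of 5 had a peak (FGFR2; 11.2% of genes), in sgC cells on enzalutamide 2 of 5 (FGFR2 and FGFR3; 15.8%), and in sgC cells on DMSO all 5 (25.1%). FGFR1, FGFR4 and FGFRL1 thus shared 1 pattern, a call in sgPRKCI cells on enzalutamide and in sgC cells on DMSO and none in the other conditions.

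**Figure D3:**
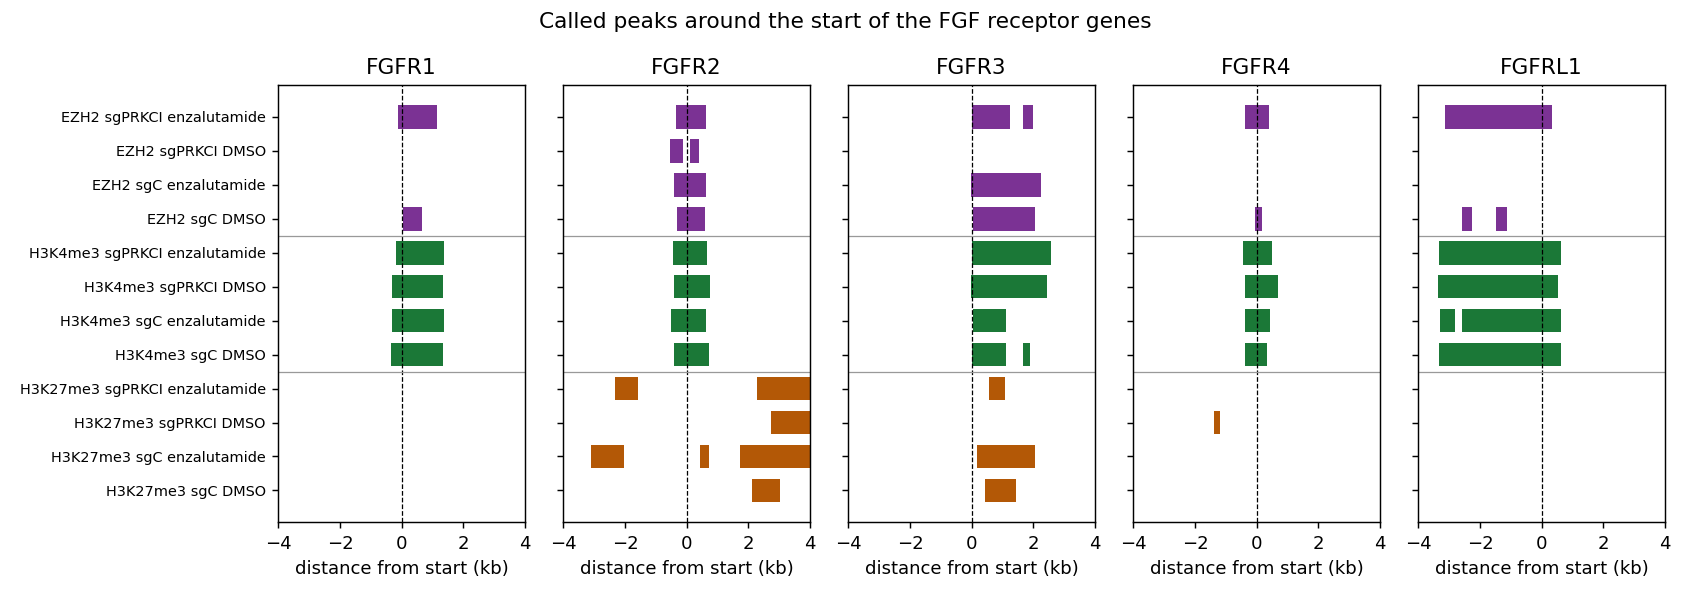
Called peaks of EZH2 (purple), H3K4me3 (green) and H3K27me3 (orange) within 4 kb of the start of each FGF receptor gene, with distance in kb in the direction of transcription and 1 row per library. All EZH2 peaks overlap H3K4me3 of the same condition, and the H3K27me3 peaks of FGFR2 run on beyond the right edge. The FGFR4 peaks of H3K27me3 more than 12 kb downstream are outside the plot. The FGFR1 start is the annotated end at the H3K4me3 peak, and the FGFRL1 start is the listed one inside the annotated gene.

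At FGFR1 the EZH2 summit held 102 fragments, or 66.7 times genome-wide coverage (54.3 to 80.9), in sgPRKCI cells on enzalutamide, and 23 fragments, or 17.0 times (10.8 to 25.5), in sgC cells on DMSO. FGFR4 had 50 fragments (32.7 times) and 23 (17.0 times) in the same pair of libraries. FGFRL1 had 75 fragments (49.0 times) in sgPRKCI cells on enzalutamide, and in sgC cells on DMSO 26 (19.2 times) with a second peak of 16 (11.8 times). All 3 genes were higher in sgPRKCI cells on enzalutamide, the library whose EZH2 signal followed H3K4me3, and the counting intervals were apart at FGFR1 and FGFRL1 and overlapped at FGFR4. Their peaks in sgC cells on DMSO were also narrower, 0.596 kb against 1.27 kb at FGFR1, 0.218 kb against 0.784 kb at FGFR4, and 0.300 and 0.361 kb against 3.49 kb at FGFRL1. At FGFRL1 the summits of the sgC DMSO peaks lay at -1258 and -2413 bases from the listed start. The summit in sgPRKCI cells on enzalutamide lay at -5. As the listed start is inside the annotated gene, the peak at -1258 was within the gene. The peak at -2413 was in the flank beside the annotated upstream end.

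FGFR2 was the receptor gene with EZH2 in every condition. Its summit held 38 fragments (24.8 times genome-wide coverage) in sgPRKCI cells on enzalutamide, 14 and 15 (12.4 and 13.3 times) at a pair of peaks around the start in sgPRKCI cells on DMSO, 29 (17.3 times) in sgC cells on enzalutamide and 24 (17.8 times) in sgC cells on DMSO. The sgC values on enzalutamide and on DMSO were alike, with a log2 ratio of -0.04. The log2 ratio of sgPRKCI over sgC in DMSO, from the higher peak of each library, was -0.41, where the median of 2050 genes was -0.18, and that of enzalutamide over DMSO in sgPRKCI cells was 0.90, where the median of 2174 genes was 0.60. The intervals of the single FGFR2 summits overlapped between all conditions. The counting interval of the log2 ratio itself was 0.002 to 1.87 for enzalutamide over DMSO in sgPRKCI cells, and -1.45 to 0.58 for the guides in DMSO. At least 2-fold higher summits were seen in those comparisons at 0.244% and 41.4% of genes and at least 2-fold lower ones at 1.80% and 0.736%, none of them at a receptor gene.

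FGFR3 had EZH2 in all conditions except sgPRKCI cells on DMSO. The summit held 28 fragments (18.3 times genome-wide coverage, 12.2 to 26.4) in sgPRKCI cells on enzalutamide, 39 (23.2 times, 16.5 to 31.7) in sgC cells on enzalutamide and 42 (31.1 times, 22.4 to 42.0) in sgC cells on DMSO. It was the one member whose highest EZH2 summit was not in sgPRKCI cells on enzalutamide, with a log2 ratio there of -0.34 to the sgC enzalutamide library, where the median of 2732 genes was 0.49. In that comparison 39.9% of genes were at least 2-fold higher and 3.04% at least 2-fold lower. Enzalutamide over DMSO in sgC cells gave -0.42 at FGFR3, where the median of 2577 genes was 0.01 and 0.233% of genes were at least 2-fold higher and 1.75% lower, and the counting intervals overlapped. The peak was 2.30 kb wide in sgC cells on enzalutamide and 2.03 kb in sgC cells on DMSO, and in sgPRKCI cells on enzalutamide it was split into 1.25 and 0.327 kb.

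In the comparison of guides in DMSO, FGFR1, FGFR3, FGFR4 and FGFRL1 lost their EZH2 call (had a peak in sgC and none in sgPRKCI cells) and none gained one. Of all protein-coding genes, 14.8% lost and 1.01% gained a call, and among the 5025 genes that had a peak in sgC cells 59.2% lost it, so the loss was shared with most genes that had EZH2. The sgPRKCI DMSO library was also the shallowest of the 4 EZH2 libraries, with a genome-wide coverage of 1.13 fragments against 1.35 in sgC cells on DMSO. At the height seen in sgC cells, the summits would have held 19.2 fragments at FGFR1 and FGFR4, 21.6 at FGFRL1 and 35.0 at FGFR3 in that library, whose lowest called summit held 10. How much of the loss depth accounts for was not tested.

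With enzalutamide in sgC cells, FGFR1, FGFR4 and FGFRL1 lost the call and none gained one, against 12.2% of genes lost and 2.87% gained, and 48.6% lost among the genes with a peak on DMSO. This library was the deepest of the 4, at a coverage of 1.68, and at the DMSO height the 3 summits would have held 28.6, 28.6 and 32.3 fragments, against 11 at its lowest called summit. With enzalutamide in sgPRKCI cells, FGFR1, FGFR3, FGFR4 and FGFRL1 gained a call, as 62.7% of all genes did (0.394% lost one) and 70.6% of those with no peak on DMSO. For sgPRKCI over sgC on enzalutamide, FGFR1, FGFR4 and FGFRL1 gained a call, as 59.9% of genes did (2.10% lost one) and 71.1% of those with no peak in sgC cells. Both of these last shares are so high that the gains at the receptor genes do not stand out. With the 4 EZH2 lists held to equal length by their strongest peaks, no receptor gene had EZH2 in sgPRKCI cells on enzalutamide. That rule cut this list from 24551 to 6182 peaks, so its weaker peaks were left out by construction. None of these gains was then left, and the changes were losses, of FGFR2 with enzalutamide in sgPRKCI cells and of FGFR2 and FGFR3 for sgPRKCI over sgC on enzalutamide. By height, FGFR2 was higher in sgPRKCI cells on enzalutamide (24.8) than on DMSO (13.3) or in sgC cells on enzalutamide (17.3). FGFR3 was lower there (18.3) than in sgC cells on enzalutamide (23.2).

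Wherever EZH2 was called at a receptor gene it overlapped H3K4me3 by at least 1 bp. All 16 EZH2 peaks at the 5 genes overlapped an H3K4me3 peak of the same condition. At FGFR3 in sgC cells EZH2 ran past H3K4me3. On enzalutamide EZH2 reached 2.26 kb downstream of the start and H3K4me3 1.11 kb. On DMSO EZH2 reached 2.07 kb, and H3K4me3 1.11 kb with a separate peak ending at 1.91 kb. The overlap is counted below without regard to its length. For some genes with EZH2, every EZH2 peak overlapped H3K4me3. Their share was 87.4% in sgPRKCI cells on enzalutamide and 45.8% in sgPRKCI cells on DMSO. It was 31.2% in sgC cells on enzalutamide and 63.8% in sgC cells on DMSO. In sgC cells on DMSO the EZH2 summit was 0.167 of the H3K4me3 summit at FGFR1, 0.208 at FGFRL1, 0.383 at FGFR2 and 0.387 at FGFR4. FGFR3 stood apart with 1.14 in sgC cells on DMSO and 1.10 in sgC cells on enzalutamide, and its EZH2 peaks had a stronger q-value than 94.7% and 92.1% of their lists. In sgPRKCI cells on enzalutamide the ratio was 0.427 to 0.842 over the 5 genes, around the 0.510 that was the median of 13802 genes there.

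Of the 16 EZH2 peaks, 4 also overlapped H3K27me3 of the same condition. These were the FGFR3 peaks of sgC cells on enzalutamide and on DMSO, 1 of the 2 FGFR3 peaks of sgPRKCI cells on enzalutamide, and the FGFR2 peak of sgC cells on enzalutamide. The other 12 lay on H3K4me3 without a called H3K27me3 peak. Over all EZH2 peaks, 2.94% overlapped both marks in sgPRKCI cells on enzalutamide, 8.77% in sgPRKCI cells on DMSO, 4.68% in sgC cells on enzalutamide and 4.89% in sgC cells on DMSO.

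H3K27me3 was called within the window at 3 of 5 genes in sgPRKCI cells on enzalutamide (FGFR2, FGFR3, FGFR4; 32.4% of all genes), 2 in sgPRKCI cells on DMSO (FGFR2, FGFR4; 34.9%), 2 in sgC cells on enzalutamide (FGFR2, FGFR3; 33.8%) and 2 in sgC cells on DMSO (FGFR2, FGFR3; 30.9%). FGFR1 and FGFRL1 had none in any condition, as did 65.1% to 69.1% of genes per condition. The median gene had 0% of its window covered in each.

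FGFR2 carried most of the mark. It covered 18.1 kb (12.9% of the window) in sgPRKCI cells on enzalutamide, 12.7 kb (9.07%) in sgPRKCI cells on DMSO, 21.1 kb (15.1%) in sgC cells on enzalutamide and 10.3 kb (7.36%) in sgC cells on DMSO. Both enzalutamide libraries covered more than the DMSO library of the same guide. The median H3K27me3 peak of the whole list was also wider on enzalutamide, 1378 bp in sgPRKCI cells and 1311 bp in sgC cells, than on DMSO, 950 bp and 841 bp in the same order of guides, and its part in the FGFR2 values was not tested. The blocks lay mainly inside the gene, 17.4 to 34.5 kb downstream of the first start, with smaller ones 1.74 to 6.20 kb downstream. Both enzalutamide libraries also had blocks between -3.10 and -1.58 kb and between 38.3 and 41.2 kb, where the DMSO libraries had none. In sgPRKCI cells these were near the calling limit, at a −log10 q of 1.56 and 1.42. In sgC cells they stood at 2.06 to 2.46, and at a stricter q only those of sgC cells were left. Beyond the far end of the gene, at 121.7 to 124.2 kb, all conditions except sgPRKCI cells on DMSO had a block. These far blocks were also near the limit, at 1.40 to 1.79. The fold enrichment of all FGFR2 blocks over the local background was 2.53 to 4.04. The CpG-rich first start itself lay under no H3K27me3 block in any condition. The nearest was a 0.320 kb block 0.424 to 0.743 kb downstream of it in sgC cells on enzalutamide, partly under the EZH2 peak.

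**Figure D4:**
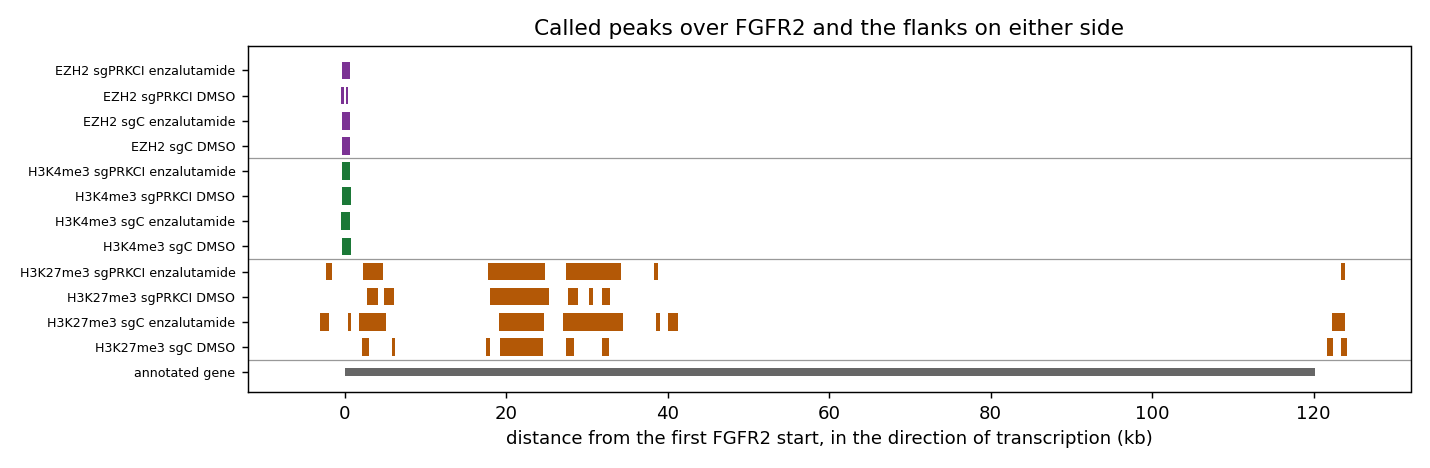
Called peaks of EZH2 (purple), H3K4me3 (green) and H3K27me3 (orange) over FGFR2 and 10 kb on either side, 1 row per library, with distance in kb from the first start in the direction of transcription and the annotated gene as a grey bar. EZH2 and H3K4me3 are called at the start alone, and H3K27me3 lies mainly 17.4 to 34.5 kb inside the gene in all 4 conditions.

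FGFR3 had short H3K27me3 blocks. They covered 0.521 kb in sgPRKCI cells on enzalutamide, none in sgPRKCI cells on DMSO, 2.22 kb in sgC cells on enzalutamide and 1.03 kb in sgC cells on DMSO, with fold enrichments of 2.71 to 3.33. All lay on its EZH2 peaks except a 0.326 kb block 5.25 to 5.57 kb downstream of the start in sgC cells on enzalutamide, where 1.89 kb was on the EZH2 peak. FGFR4 had blocks in the flanks alone, 12.7 to 14.2 kb downstream of its first start in both sgPRKCI libraries and upstream of it at -1.38 to -1.19 kb in sgPRKCI cells on DMSO. They covered 1.34 kb in sgPRKCI cells on enzalutamide, 0.898 kb in sgPRKCI cells on DMSO and none in either sgC library.

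By calls, sgPRKCI over sgC in DMSO gained H3K27me3 at FGFR4 and lost it at FGFR3, against 6.35% of genes gained and 2.31% lost. Enzalutamide in sgC cells changed no receptor call (4.84% of genes gained, 1.95% lost), enzalutamide in sgPRKCI cells gained FGFR3 (2.46% gained, 4.98% lost), and sgPRKCI over sgC on enzalutamide gained FGFR4 (2.72% gained, 4.10% lost). The H3K27me3 at FGFR3 and FGFR4 was near the calling limit: every block had a −log10 q of 1.43 to 2.70, and the lowest in the lists was 1.00 to 1.02.

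The 3 readouts of FGFR3 met in 1 condition, which none of the other receptor genes showed. In sgPRKCI cells on DMSO it had no EZH2 call, no H3K27me3 call and its highest H3K4me3, and in sgC cells on DMSO it had both calls and a lower H3K4me3 summit, at the ratio of 2.23 given above. Across all genes in that comparison, 2975 lost EZH2, 462 lost H3K27me3, 94 lost both, 32 had an H3K4me3 summit at least 2-fold higher, and 11 of these 32 had also lost EZH2. FGFR3, LPL and RTN1 were the 3 genes with all of these changes. LPL encodes lipoprotein lipase and RTN1 a reticulon of the endoplasmic reticulum. Their selection followed from the values shown and carries no test. At a stricter q FGFR3 had no H3K27me3 call in sgC cells on DMSO, and the 3 changes then no longer met.

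The windows of FGFR1, FGFR3, FGFR4 and FGFRL1 also reached into neighbouring genes: LETM2, LOC102723716 and RPS20P22 beside or within FGFR1, LETM1 beside FGFR3, ZNF346 beside FGFR4, and IDUA and LOC105374343 beside FGFRL1. No called peak of the 12 lists within the windows lay on any of them.

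Each EZH2 pattern was compared with that of the other genes. The call in sgPRKCI cells on enzalutamide and sgC cells on DMSO alone, seen at FGFR1, FGFR4 and FGFRL1, was shared by 2112 genes (10.5%), and 2094 of these were among the 13666 genes with H3K4me3 in all conditions (15.3% of them). Of 54 other receptor tyrosine kinase genes 7 had it: EGFR, INSR, KIT, PTK7, EPHA1, STYK1 and LMTK2. The FGFR2 pattern, a call in all 4, was found at 1694 genes (8.45%) and at 15 of the 54 kinases. The FGFR3 pattern was found at 685 genes (3.42%) and at MET and NTRK2 of the 54. With H3K4me3 and H3K27me3 calls added, 9 genes including FGFR3 shared its 12 calls, 24 those of FGFR4, 794 those of FGFR2 and 1471 those of FGFR1 and FGFRL1.

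Likeness over all 12 libraries was measured as the mean absolute difference of log2(highest fold enrichment + 1), with 0 where no peak was called. The 3 genes nearest to FGFR3 were DPYSL3, METRNL and CITED1, at 0.36 to 0.46, where the median gene stood at 1.81. Those nearest to FGFR2 were TMEM74B, ZBTB7C and TMEM106B (0.16 to 0.19, median gene 1.99), and those nearest to FGFR4 were PPIP5K2, ENPP4 and PGM2L1 (0.21 to 0.28, median gene 1.18). FGFR1 was nearest to RAPH1, TLE2 and SPICE1 (0.08 to 0.09, median gene 0.81), and FGFRL1 to USP45, IMMP1L and OTUD1 (0.06 each, median gene 0.85). FGFR3 was thus the member with the least close neighbours. DPYSL3, a gene for a cytoskeletal protein of the growing axon, had EZH2 fold enrichments of 6.67 in sgPRKCI cells on enzalutamide, 6.32 in sgC cells on enzalutamide and 7.65 in sgC cells on DMSO and no call in sgPRKCI cells on DMSO, as FGFR3 did.

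A larger share of ligand genes than of receptor genes had H3K27me3, and a smaller share had H3K4me3. Of all protein-coding genes, EZH2 was called at 73.5% in sgPRKCI cells on enzalutamide and 11.2% on DMSO. In sgC cells it was called at 15.8% and 25.1% in the same order. For the guides in DMSO, 14.8% of genes lost and 1.01% gained a call. Enzalutamide in sgC cells lost 12.2% and gained 2.87%, and in sgPRKCI cells lost 0.394% and gained 62.7%. In the gene lists that follow, values in parentheses after a gene are the authors' fold enrichment of its EZH2 peak with the strongest q-value, unless another mark is named. Of 18 secreted FGF genes, EZH2 was called at 11 in sgPRKCI cells on enzalutamide, 8 in sgPRKCI cells on DMSO, 11 in sgC cells on enzalutamide and 10 in sgC cells on DMSO. H3K27me3 was called at 14, 15, 14 and 14 of them and H3K4me3 at 6, 8, 7 and 5, in the same order. Of all genes, 30.9% to 34.9% had H3K27me3 and 69.2% to 71.6% had H3K4me3 per condition. H3K27me3 covered 100% of the FGF9 window in every condition, and a mean over conditions of 56.3% at FGF5 and 48.3% at FGF3. The median ligand window was covered to 9.68% to 18.0%, against 0% for the receptors except 1.46% in sgPRKCI cells on enzalutamide. In sgPRKCI over sgC cells in DMSO, FGF5 and FGF22 lost EZH2, and FGF5, whose fold enrichment had been 11.1 in sgC cells, also gained H3K4me3 (5.86) there. H3K4me3 was gained there at 3 of the 18 ligand genes (2.66% of all genes), and FGF5 alone of these lost EZH2. Enzalutamide in sgC cells gained EZH2 at FGF23 (7.07) and FGF1 (5.60) and lost it at FGF22 (5.67 on DMSO). Enzalutamide in sgPRKCI cells gained 4 ligands, led by FGF22 (35.7), FGF21 (20.2) and FGF17 (8.26), and lost FGF19 (8.58 on DMSO), the ligand that signals through FGFR4 and the co-receptor KLB.

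Of 15 genes for co-receptors and FGF carriers (klothos, syndecans, glypicans and FGF-binding proteins), EZH2 was called at 11 in sgPRKCI cells on enzalutamide, 3 in sgPRKCI cells on DMSO, 3 in sgC cells on enzalutamide and 5 in sgC cells on DMSO. In sgPRKCI over sgC cells in DMSO, GPC5 (6.81 in sgC cells) and FGFBP3 (5.06) lost the call, as 14.8% of all genes did. Enzalutamide in sgC cells lost GPC6 (4.69 on DMSO) and FGFBP3, against 12.2% of all genes. Enzalutamide in sgPRKCI cells gained 8 (62.7% of all genes), led by KLB (46.0), FGFBP3 (34.0) and GPC2 (18.1).

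The 22 signal transducer genes all had H3K4me3 in every condition. EZH2 was called at all 22 in sgPRKCI cells on enzalutamide, 3 in sgPRKCI cells on DMSO, 2 in sgC cells on enzalutamide and 7 in sgC cells on DMSO. In sgPRKCI over sgC cells in DMSO 5 were lost. Of all genes 14.8% lost the call, and 59.2% of those with a peak in sgC cells did. Among the 5 were CBL (9.21 in sgC cells), a ubiquitin ligase that ends receptor signalling, PIK3R1 (5.39), a regulatory subunit of PI3-kinase, and PLCG1 (5.64), the phospholipase bound by activated receptors. SOS2 gained a call (5.92), as 1.01% of all genes did. Enzalutamide in sgC cells also lost 5, including PIK3R1, PLCG1 and AKT1 (6.13 on DMSO). In that comparison 12.2% of all genes lost the call, and 48.6% of those with a peak on DMSO did. Enzalutamide in sgPRKCI cells gained 19 (62.7% of all genes), among them GRB2 (45.2) and CRKL (38.9). In that library 96.2% of all genes with H3K4me3 had an EZH2 peak, so these gains do not stand out.

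Feedback inhibitors and target genes had fewest EZH2 calls in sgPRKCI cells on DMSO, as did the receptors and all genes. Of 18, EZH2 was called at 16 in sgPRKCI cells on enzalutamide, 5 in sgPRKCI cells on DMSO, 6 in sgC cells on enzalutamide and 13 in sgC cells on DMSO. In sgPRKCI over sgC cells in DMSO 8 lost the call and none gained one. Of all genes 14.8% lost the call, and 59.2% of those with a peak in sgC cells did. Among the 8 were EGR1 (6.13 in sgC cells), an immediate early transcription factor, and SPRED1 (5.28), an inhibitor of RAS signalling. DUSP4 (5.42), a MAP kinase phosphatase, was also among them. Enzalutamide in sgC cells lost 7 (12.2% of all genes, and 48.6% of those with a peak on DMSO). They included EGR1, SPRED1 and IL17RD (7.97 on DMSO), a membrane antagonist of FGF signalling. Enzalutamide in sgPRKCI cells gained 11 (62.7% of all genes), led by CCND1 (29.1), SPRED3 (23.2) and SPRED2 (28.2). H3K27me3 was concentrated on the transcription factor genes ETV1 (mean cover 38.1%) and ETV5 (24.6%) and on SPRY4 (29.7%), an inhibitor of receptor signalling.

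**Figure D5:**
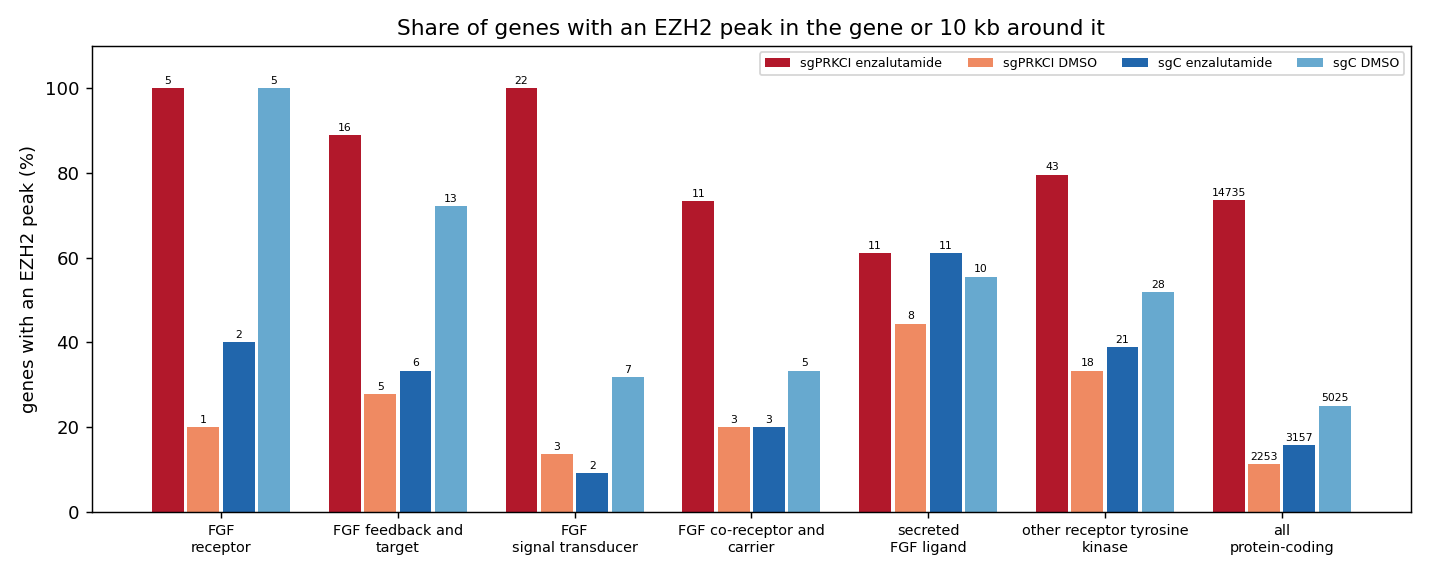
Share of genes with an EZH2 peak in the gene or 10 kb around it, in percent, for the FGF receptor genes, 5 other gene lists and all 20037 protein-coding genes, in the 4 conditions (1 library each). Numbers above the bars are gene counts. The receptors stand at 5, 1, 2 and 5 of 5 in the order of the legend.

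Of the 54 other receptor tyrosine kinase genes, EZH2 was called at 43 in sgPRKCI cells on enzalutamide, 18 in sgPRKCI cells on DMSO, 21 in sgC cells on enzalutamide and 28 in sgC cells on DMSO. In sgPRKCI over sgC cells in DMSO 10 lost the call (14.8% of all genes) and none gained one. Among the 10 were MET (6.53 in sgC cells), EGFR (7.79) and NTRK2 (7.20). At NTRK2 H3K4me3 was called in sgPRKCI cells on DMSO (9.79) and not in sgC cells on DMSO, and H3K27me3 was called in both. Of the 54, 4 gained an H3K4me3 call there (2.66% of all genes), and NTRK2 alone of these lost EZH2. The rest of the 10 gained no H3K4me3 call. Enzalutamide in sgC cells lost 9, led by EPHB3 (5.61 on DMSO), EGFR and ROR1 (5.88), and gained ERBB4 (7.44) and EPHA8 (5.63). Of all genes 12.2% lost and 2.87% gained a call there. Enzalutamide in sgPRKCI cells gained 26 (62.7% of all genes), led by ERBB3 (40.4), PTK7 (34.4) and RYK (53.9), and lost ALK (9.41 on DMSO). H3K27me3 was called at 32, 33, 33 and 30 of the 54 in the usual order of conditions, against 30.9% to 34.9% of all genes. It covered most at MET (mean 46.4%), EPHA8 (44.0%) and ROS1 (41.6%).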

How the data were processed

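CUT&RUN was read from 12 deposited peak lists, 1 per antibody and condition. Per the submitters' processing notes the tools were FastQC, Trimmomatic, Bowtie2, SAMtools and MACS2 on build GRCh38. The sources used here give no versions or calling settings and do not say how IgG or the spike-in entered; the 4 IgG samples were not analysed here. In the lists deposited by the authors each peak has a score, a fold enrichment (a ratio to local background) and the −log10 of its p-value and q-value. EZH2 and H3K4me3 lists are narrow peaks with summits, at a −log10 q of at least 4.00, and H3K27me3 lists are broad peaks.

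Genes came from a RefSeq table of GRCh38.p14. A gene had a peak where one overlapped it or its 10 kb flanks by at least 1 bp, and a call was gained or lost between 2 libraries by that rule. Summit fragments and local background were solved from the deposited fold enrichment and p-value under the caller's formula, with a pseudocount of 1, for 99.96% to 100% of narrow peaks. Genome-wide coverage, the lowest local background, was 0.842 to 1.68 fragments, and coverage sets the precision. Most peaks of the EZH2 list of sgPRKCI cells on enzalutamide were solved only after a scale on the fragment count was fitted to that list. The fitted scale was 0.890, and the other narrow lists used 1. Solving was tested on simulated data with the scale given, so the fitting of the scale was not tested. Peaks on other contigs (2.39% to 6.50%) were left out, as was 1 row with a malformed contig name.

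All 5 receptor genes were named, and of each list up to 3 genes per EZH2 gain or loss by highest −log10 q, up to 3 with most H3K27me3 and, for each receptor gene, the 3 most alike. Alternatives were the flank, a stricter q, equal list lengths, overlap, EZH2 outside H3K4me3, filled gaps and centred heights. A few genes of the lists are not reported here. The members and lists were chosen with earlier results of these data known. Python 3.11.15, numpy 2.4.6, scipy 1.17.1, pandas 2.3.3 and matplotlib 3.10.9 were used.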

Additional observations from a re-analysis of the deposited data

Results flagged for a closer look

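Enzalutamide over DMSO changed EZH2 calls in opposite directions in the 2 guides at 3 receptor genes. The differences were not tested, since each condition has 1 library. EZH2 was gained in sgPRKCI cells and lost in sgC cells at FGFR1 (fold enrichment 19.3 in sgPRKCI cells on enzalutamide and 7.85 in sgC cells on DMSO), FGFR4 (16.9 and 7.16) and FGFRL1 (28.7 and 8.05). All 3 gains come from the library whose EZH2 summits followed H3K4me3, and its part in them was not tested. FGFR2 had ratios of unlike sign in the 2 guides, with heights as they were and centred on the median ratio of all genes. For H3K4me3 its log2 ratio was 0.31 in sgPRKCI cells and -0.62 in sgC cells, and centred it was close to the median gene in sgPRKCI cells (0.0045) and -0.90 in sgC cells, a difference of 0.91. For EZH2 it was 0.90 in sgPRKCI cells and -0.04 in sgC cells, and centred 0.30 and -0.05, a difference of 0.35. The counting intervals of the summits overlapped within each guide. Those of the uncentred log2 ratios were 0.002 to 1.87 in sgPRKCI cells and -0.87 to 0.80 in sgC cells.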

How the results depend on the processing

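A flank of 25 kb, a rule of at least 50% of the peak inside the window and a search to 15 kb for the lost peak left every count of members with a call or a changed call as it was. With EZH2 peaks outside all H3K4me3 peaks alone, members with EZH2 numbered 0 in each condition and changed EZH2 calls 0 in each comparison. This follows because every EZH2 peak of these genes overlaps H3K4me3. With lists of equal length, EZH2 was called at 0 members in sgPRKCI cells on enzalutamide, the gains ended, and the changes were losses: 1 (FGFR2) with enzalutamide in sgPRKCI cells instead of 4 gains, and 2 (FGFR2, FGFR3) for sgPRKCI over sgC on enzalutamide instead of 3 gains. That list is shortened the most, from 24551 to 6182 peaks, and the FGFR2 losses are not falls in its summit height. With a stricter q, EZH2 in sgPRKCI cells on DMSO went to 0 members, so that 5 calls, FGFR2 added, were lost for sgPRKCI over sgC in DMSO and 5 gained with enzalutamide in sgPRKCI cells, and H3K27me3 to 1 (FGFR2) in sgPRKCI cells on enzalutamide and 1 (FGFR2) in sgC cells on DMSO. H3K27me3 calls then changed at 1 gene for sgPRKCI over sgC in DMSO (FGFR4 gained, FGFR3 no longer lost) and at 1 for enzalutamide in sgC cells (FGFR3 gained). They turned round at 1 gene with enzalutamide in sgPRKCI cells (FGFR4 lost, in place of FGFR3 gained) and at 1 for sgPRKCI over sgC on enzalutamide (FGFR3 lost, in place of FGFR4 gained). Without flanks, H3K27me3 was called at 1 member (FGFR2) in sgPRKCI cells on DMSO and at 2 (FGFR2, FGFR3) instead of 3 in sgPRKCI cells on enzalutamide. Its changed calls were then 1 (FGFR3) for sgPRKCI over sgC in DMSO and 0 for the guides on enzalutamide. With centred heights, 1 receptor gene (FGFR3) was at least 2-fold lower in H3K4me3 with enzalutamide in sgPRKCI cells. H3K27me3 cover under the stricter q was 16.4, 12.2, 19.3 and 6.84 kb at FGFR2 in sgPRKCI cells on enzalutamide and DMSO and sgC cells on enzalutamide and DMSO. It was 0 kb at FGFR3 in sgPRKCI cells on enzalutamide, 1.89 kb in sgC cells on enzalutamide and 0 kb in sgC cells on DMSO. At FGFR4 it was 0 kb in sgPRKCI cells on enzalutamide and 0.714 kb on DMSO. Filling gaps gave 13.4 kb at FGFR2 in sgPRKCI cells on DMSO and 23.1 kb in sgC cells on enzalutamide. Beyond the fewer or shorter peaks that a stricter q and missing flanks leave by construction, the causes were not tested. Leaving out the EZH2 library of sgPRKCI cells on enzalutamide, an alternative added after seeing the data, kept at least 2 of the 3 most alike genes of each receptor gene. No paired analysis was possible because each group has 1 sample. A missing call at a coverage of 0.842 to 1.68 fragments does not show that a protein or mark was absent.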
